A study of Mus musculus with 5 samples.

Results

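The fibroblast growth factor (FGF) pathway was examined in peak lists of trimethylated lysine 27 of histone H3 (H3K27me3) from mouse dermal fibroblasts. It was represented by 43 genes of 21951 annotated protein-coding genes. These genes were chosen by name and role, as 20 FGF ligands, 5 receptors, 11 feedback genes (the Sprouty, Spred, Dusp and Etv genes that FGF signalling induces or that limit it) and 7 co-receptors, FLRT proteins and binding proteins. The choice was made with earlier results of these data known. H3K27me3 was mapped by ChIP-seq, which recovers chromatin fragments with an antibody to the mark, in 2 libraries of embryonic day E14.5 and 2 of E18.5. These names follow the study's methods, while the labels put the groups at day 14 and day 17. All 4 libraries came from dermal cells of wild-type mice of a C57BL/6 background, and the methods name no transgene or treatment for either group. The cells were expanded in culture before the chromatin was prepared, so the lists describe cultured dermal cells rather than fibroblasts taken directly from skin. The labels name DMEM with serum, sonication and an Ion Torrent kit, whereas the methods name AmnioMAX medium, an enzymatic kit and Illumina sequencing.

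FGF ligands bind receptor tyrosine kinases at the cell surface together with heparan sulfate or Klotho co-receptors, and the receptors signal through the RAS and ERK kinases. ERK signalling induces Sprouty, Dusp and Etv genes, and the Sprouty, Spred and Dusp proteins dampen the same signal. In skin, FGFs pass between the epidermis and the dermis while hair follicles form, and H3K27me3, laid down by the Polycomb repressive complex PRC2, is associated with genes that are not transcribed.

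A gene was scored as marked in a library when a peak of that list lay at least partly within 3000 bp of one of its annotated start sites. The covered length is the number of bases of these windows inside peaks. The strength of a peak is given as the percentile of its fold enrichment within its own list, because fold enrichment was not compared between lists. The lists differ in length, so a percentile ranks a peak within its own list and its difference between stages was not read as a change in signal. The E14.5 lists had 21546 and 16574 entries, the E18.5 lists 10429 and 7107, and they carry no read totals. By the methods, E18.5 wild-type samples and E18.5 knockout samples of Kdm6b were brought by subsampling to the read depth of the other samples. The methods do not say whether the E18.5 libraries used here are among them, so no depth is given per library. Absence of a peak therefore means absence from a thresholded list. None of 10 dermal fibroblast marker genes, among them Col1a1, Pdgfra and Twist2, had a peak in any library. Krt1, Cdh1 and Epcam of 6 epidermal markers, Kdr of 4 endothelial markers, and Myod1 and Des of 4 muscle markers had a peak in all 4. The muscle marker Myf5 had a peak at E14.5 only. Of all 21951 protein-coding genes, 5675 had a peak and 2645 had one in all 4 libraries. Most genes thus had none, and the marker lists are short. These are positions of a histone mark and not expression, and the cell types present were not tested by them.

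Promoter sequences of 6 members are given to show the DNA that the mark covered or left uncovered. Each is the 250 bases before the RefSeq start site in GRCm38.p6, written 5′ to 3′ along the gene's strand, with each CG (CpG) dinucleotide in capitals. CG was searched on both strands, which read alike for this motif. Fgf9 (chr14:58072436-58072685 on the plus strand) and Fgf5 (chr5:98253934-98254183 on the plus strand) stand for ligands whose promoter was in a peak in all 4 libraries. Fgf18 (chr11:33147401-33147650 on the minus strand) and Fgf10 (chr13:118714449-118714698 on the plus strand) stand for ligands with peaks at E14.5 only. Spry2 (chr14:105896820-105897069 on the minus strand) and Dusp6 (chr10:99262981-99263230 on the plus strand) stand for feedback genes without a peak.
Fgf9: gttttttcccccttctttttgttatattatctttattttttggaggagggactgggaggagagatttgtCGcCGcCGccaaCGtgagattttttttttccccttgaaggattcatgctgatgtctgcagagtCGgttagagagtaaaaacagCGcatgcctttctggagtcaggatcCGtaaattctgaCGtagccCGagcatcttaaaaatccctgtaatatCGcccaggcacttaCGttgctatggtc
Fgf5: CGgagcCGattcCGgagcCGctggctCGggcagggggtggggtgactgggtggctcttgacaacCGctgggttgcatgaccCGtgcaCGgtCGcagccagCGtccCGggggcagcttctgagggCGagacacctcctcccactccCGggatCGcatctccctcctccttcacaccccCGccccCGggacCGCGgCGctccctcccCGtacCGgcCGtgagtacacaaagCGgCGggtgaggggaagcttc
Fgf18: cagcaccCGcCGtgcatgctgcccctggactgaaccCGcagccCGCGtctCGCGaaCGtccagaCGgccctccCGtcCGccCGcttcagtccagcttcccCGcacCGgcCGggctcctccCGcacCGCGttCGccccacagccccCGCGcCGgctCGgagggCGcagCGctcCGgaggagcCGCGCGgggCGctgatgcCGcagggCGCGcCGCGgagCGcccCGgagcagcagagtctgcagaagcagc
Fgf10: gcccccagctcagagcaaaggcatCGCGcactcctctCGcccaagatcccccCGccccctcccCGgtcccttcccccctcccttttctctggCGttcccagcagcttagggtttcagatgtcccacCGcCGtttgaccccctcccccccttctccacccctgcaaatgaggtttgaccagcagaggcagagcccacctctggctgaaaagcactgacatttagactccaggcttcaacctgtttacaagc
Spry2: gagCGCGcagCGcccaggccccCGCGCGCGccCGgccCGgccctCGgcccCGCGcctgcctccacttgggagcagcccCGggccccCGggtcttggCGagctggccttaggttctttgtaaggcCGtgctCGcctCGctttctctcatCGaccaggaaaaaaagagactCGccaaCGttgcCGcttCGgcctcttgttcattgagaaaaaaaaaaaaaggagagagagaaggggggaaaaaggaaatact
Dusp6: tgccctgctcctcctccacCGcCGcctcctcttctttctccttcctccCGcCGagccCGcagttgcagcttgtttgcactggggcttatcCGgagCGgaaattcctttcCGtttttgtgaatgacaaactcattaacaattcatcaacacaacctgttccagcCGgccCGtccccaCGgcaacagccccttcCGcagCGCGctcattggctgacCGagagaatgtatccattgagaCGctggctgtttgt
All 250 bases of the Fgf9 and Fgf5 promoters lay in a peak in each of the 4 libraries, and 0 of the 250 bases of the other 4 promoters lay in a peak in any library. The count of CG was 11 in Fgf9, 24 in Fgf5, 37 in Fgf18, 8 in Fgf10, 23 in Spry2 and 16 in Dusp6. Among 32817 RefSeq promoters cut to the same 250 bases, 92.1% held at least 1 CG and the median was 6. The count thus did not separate the promoters inside peaks from those outside them, since Fgf9, which was covered in every library, had fewer CG than Fgf18, Spry2 and Dusp6, which were not.

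The ligand genes carried most of the mark in this pathway, and 1 of the 11 feedback genes had a peak. At E14.5, 20 of the 43 genes had a peak in both libraries (46.5%), compared with 19.5% of all protein-coding genes. At E18.5, 14 genes had a peak in both libraries (32.6%), compared with 12.2% of all protein-coding genes. By role, 15 of 20 ligands (75%), 2 of 5 receptors (40%), 1 of 11 feedback genes (9.09%) and 2 of 7 co-receptors and binding proteins (28.6%) were marked in both E14.5 libraries. The same counts at E18.5 were 11 ligands, 2 receptors, 0 feedback genes and 1 co-receptor. The ligand counts at both stages include the 3 intracellular FGFs, Fgf11, Fgf12 and Fgf14, which are not secreted. The roles were not tested against each other or against all genes. With only 11 feedback genes, the counts of 1 and 0 are near the shares of all protein-coding genes. The 43 genes were chosen with earlier results of these data known, so the shares are a description of these lists.

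**Figure D1:**
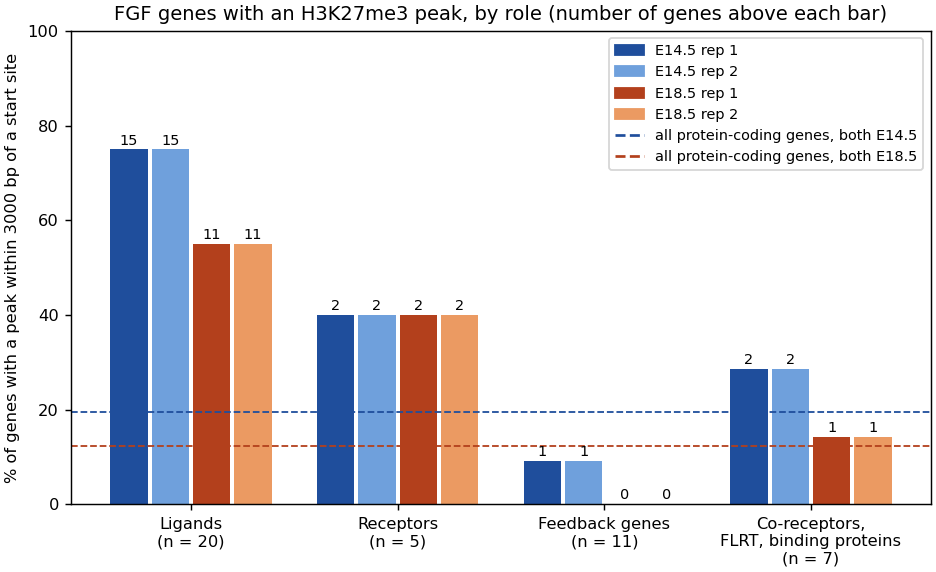
Percentage of the FGF genes of each role with an H3K27me3 peak within 3000 bp of a start site (y axis) in each of the 4 libraries (bars, with the number of genes above each bar). The dashed lines give the share of all protein-coding genes marked in both E14.5 libraries (19.5%) and in both E18.5 libraries (12.2%), and the ligands stand above both lines while the feedback genes stand below both.

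The replicates gave the same answer for every member. All 43 genes were scored alike in both libraries of each stage, as were 90.9% of protein-coding genes. The number of marked members was 20 in each E14.5 library and 14 in each E18.5 library. This is a difference of -6 genes or -30% (exact permutation test, two-sided, p = 0.33). With 2 libraries against 2 there are 3 splits, and 0.33 is the smallest p they allow, which leaves a stage difference unable to pass 0.05. The windows of the members together span 485353 bp. Of these, 96262 and 86442 bp lay in peaks at E14.5, against 60648 and 54795 bp at E18.5. The mean was 91352 ± 6944 bp (SD, n = 2) at E14.5 and 57722 ± 4139 bp (SD, n = 2) at E18.5, a difference of -36.8% (exact permutation test, two-sided, p = 0.33). Both E18.5 values were below both E14.5 values. The differences were smaller with windows of 1000 bp (-2.5 genes and -10830 bp), and the difference in genes was -3.5 with equal numbers of top peaks in each list. Nothing in the labels says that the libraries of a stage came from separate animals or cultures, so the spread may be technical.

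The covered share of the windows differed between the roles, and it also depends on how many start sites each gene has. Ligand windows were covered over 37.1% and 33.9% of their bases at E14.5 and over 24.5% and 23.05% at E18.5. Receptor windows were covered over 6.33% and 6.02%, then 3.19% and 2.06%. The 5 receptors have windows of 130624 bp, against 214268 bp for the 20 ligands. Of the receptor windows, 38448 and 49644 bp belong to Fgfr1 and Fgfr2, which had no peak. Feedback gene windows were covered over 0.387% and 0.489% at E14.5 and over 0% in both E18.5 libraries. The windows of co-receptors and binding proteins were covered over 17.6%, 11.9%, 8.51% and 5.88% in the same order of libraries. In each role, both E18.5 shares were lower than both E14.5 shares, as was the total length covered by the whole lists.

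**Figure D2:**
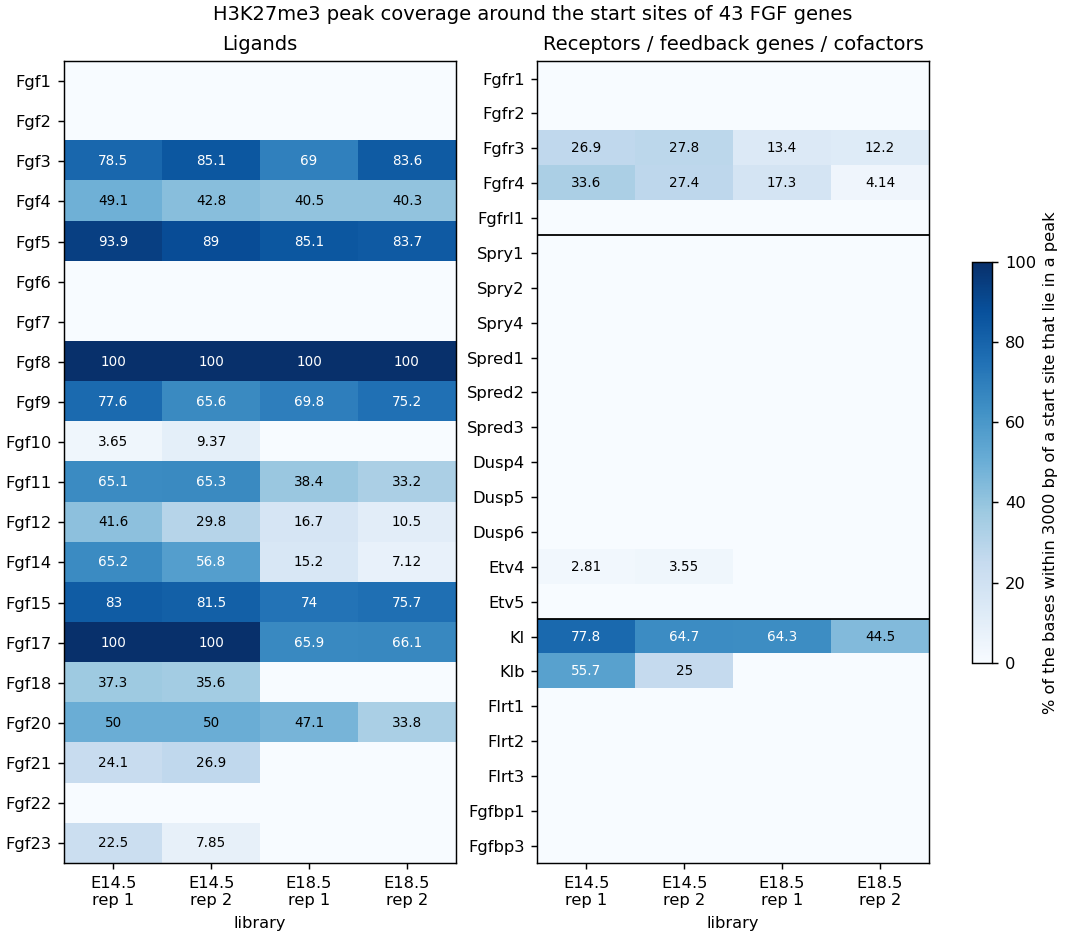
Percentage of the bases within 3000 bp of a start site that lay in an H3K27me3 peak, for each of the 43 FGF genes (rows) in each of the 4 libraries (columns), with ligands on the left and receptors, feedback genes and co-receptors with binding proteins on the right. Empty cells are genes without a peak, and of the feedback genes Etv4 alone is filled, at 2.81% and 3.55% at E14.5.

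Among the secreted ligands, Fgf8 was covered most completely. Fgf8, a signal of the limb bud ridge and the early brain, lies on chr19 (ENSMUSG00000025219.13). All 6232 bp of its window lay in a peak in all 4 libraries. Its peak was 14307 and 10583 bp wide at E14.5, against 9148 and 8023 bp at E18.5, at percentiles of 98.7, 98.8, 99.1 and 98.2. The peak extended from -3507, -3511, -3449 and -3416 bp to 10799, 7071, 5698 and 4606 bp of the start site. The upstream edge thus lay at nearly the same place in the 4 libraries, and the narrower peaks of E18.5 ended earlier on the downstream side.

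Fgf17, of the same subfamily, had 6015 bp covered in both E14.5 libraries, which is its whole window, and 3963 and 3976 bp at E18.5. Its peaks ranked at percentiles of 97.9 and 92.1, then 87.1 and 81.8. The third gene of the subfamily, Fgf18, which acts in skeletal growth and in the resting hair follicle, had peaks at E14.5 only. They covered 2464 bp (260 to 2723 bp of the RefSeq start, 83.5th percentile) and 2354 bp (190 to 2543 bp, 72.7th percentile). The CG-rich stretch before the Fgf18 start printed above was thus outside the peaks, which lay inside the gene. A second annotated start site of Fgf18, within the gene, was inside the peak in both E14.5 libraries.

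Fgf9 and Fgf20 form a further subfamily and both were marked in all 4 libraries. Fgf9, a paracrine signal from epithelia to mesenchyme, had 9278 and 7844 bp of its 11961 bp window covered at E14.5, against 8350 and 8991 bp at E18.5, so the stages overlapped. The percentiles of its strongest peak were 99.1, 96.6, 95.9 and 92.8. At E14.5 the region was split into 2 peaks in each library, chr14:58069325-58071511 with chr14:58072417-58079630 and chr14:58070787-58071535 with chr14:58072413-58079738. At E18.5 it was joined into 1 peak of 8350 bp (chr14:58070100-58078449) and 1 of 8991 bp (chr14:58069833-58078823). Fgf20, which acts in the hair placode upstream of the dermal condensate, had 6001 bp covered in both E14.5 libraries and 5658 and 4055 bp at E18.5. All of this was at a start site 21378 bp inside the gene from the first annotated one, which had no peak in any library.

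In the Fgf4 subfamily, Fgf4 and Fgf5 were marked in all 4 libraries and Fgf6, a ligand of skeletal muscle, was not marked in any. Fgf5, known as the signal that ends hair growth, had 5846 and 5542 bp covered at E14.5, against 5302 and 5212 bp at E18.5, between 83.7% and 93.9% of its window. Its percentiles were 98.5 and 98.2 at E14.5, then 93.7 and 93.7. Fgf4, a ligand of the early embryo and the limb bud, had 5898 and 5142 bp covered at E14.5, against 4866 and 4837 bp at E18.5. In both genes each E18.5 length was below each E14.5 length.

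The subfamily of Fgf3, Fgf7, Fgf10 and Fgf22 was divided. Fgf3, an inner ear ligand, was marked in all 4 libraries, with 5115 and 5542 bp covered at E14.5, against 4497 and 5443 bp at E18.5, which overlap. Fgf7, the keratinocyte growth factor made by fibroblasts, had no peak in any list, and the nearest one was 206755, 206768, 228133 and 311700 bp from a start site. Fgf22, which organises synapses, had its nearest peak at 34623, 36429, 37013 and 36669 bp.

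Fgf10, a ligand that mesenchyme sends to epithelium, was marked weakly and at E14.5 only. In E14.5 replicate 1 it had a peak of 439 bp at chr13:118712971-118713409, from -1728 to -1290 bp of the RefSeq start, at the 30.5th percentile of its list. In E14.5 replicate 2 it had a peak of 355 bp at chr13:118713558-118713912 at the 62.9th percentile, and one of 773 bp at chr13:118715003-118715775 at the 23.3rd percentile. The peaks of the replicates did not overlap each other, and none included the start site. The covered share of its windows was 3.65% and 9.37%, against 0% at E18.5. The other annotated start sites of Fgf10, at -44908 and -44875 bp, had no peak.

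The ligands that act as hormones were all marked at E14.5. Fgf15, an intestinal signal to the liver, kept 4463 and 4565 bp at E18.5 of 5007 and 4916 bp at E14.5. Fgf21, a liver hormone of fasting, had 1449 and 1613 bp covered at E14.5 at percentiles of 81.7 and 78.1, and none at E18.5. Its peaks, chr7:45617042-45619349 and chr7:45616878-45618881, ended 1552 and 1388 bp before its start site, included the start site of Fut1 and reached within 3000 bp of Izumo1, so they cannot be assigned to Fgf21 alone. Fgf23, the bone hormone of phosphate balance, had 1350 and 471 bp covered at E14.5, at percentiles of 74.6 and 1.71, and none at E18.5. Its peaks lay inside and around the gene body, from 1651 to 9159 bp and from 2530 to 3176 bp of the start. The second of these ranked near the bottom of its list.

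The 3 intracellular ligands, which bind voltage-gated sodium channels and are not secreted, were marked in all 4 libraries and had smaller covered lengths at E18.5. In the median protein-coding gene marked in all 4 libraries, the covered length at E18.5 was 62.2% of that at E14.5. Fgf11 had 3998 and 4013 bp covered at E14.5, against 2359 and 2041 bp at E18.5. Fgf12 had 12573 and 9012 bp, then 5036 and 3181 bp. Fgf14 had 7820 and 6822 bp, then 1829 and 855 bp. Within their lists, the strongest peaks ranked at percentiles of 99.5, 99.4, 87.3 and 82.3 for Fgf11, of 85.1, 80.6, 74.6 and 57.5 for Fgf12, and of 92.7, 89.7, 73.5 and 51.1 for Fgf14. The peak over the Fgf11 start reached within 3000 bp of the Tmem102 start in every library, and a second peak at E14.5 covered the Tmem102 start itself.

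Start sites of the same gene could differ. The start sites of the 43 genes fell into 68 groups whose windows did not touch, and 13 genes had more than 1 group. Of the 68 groups, 15 had a peak in all 4 libraries, 8 at E14.5 only and 45 in none. The first start group of Fgf12 had 2808 and 1323 bp covered at E14.5 and none at E18.5, whereas groups 188292 bp and 306966 bp downstream were covered in all 4 libraries. At Fgf14, the start at -484581 bp of the RefSeq start had 3867 and 3432 bp at E14.5 and none at E18.5, whereas the group at the RefSeq start had 3953, 3390, 1829 and 855 bp. Thus Fgf12 and Fgf14 were marked at both stages as genes, but had no peak at their outermost start at E18.5. In Fgf4, the start at -14019 bp had no peak and the RefSeq start had a peak in every library.

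**Figure D3:**
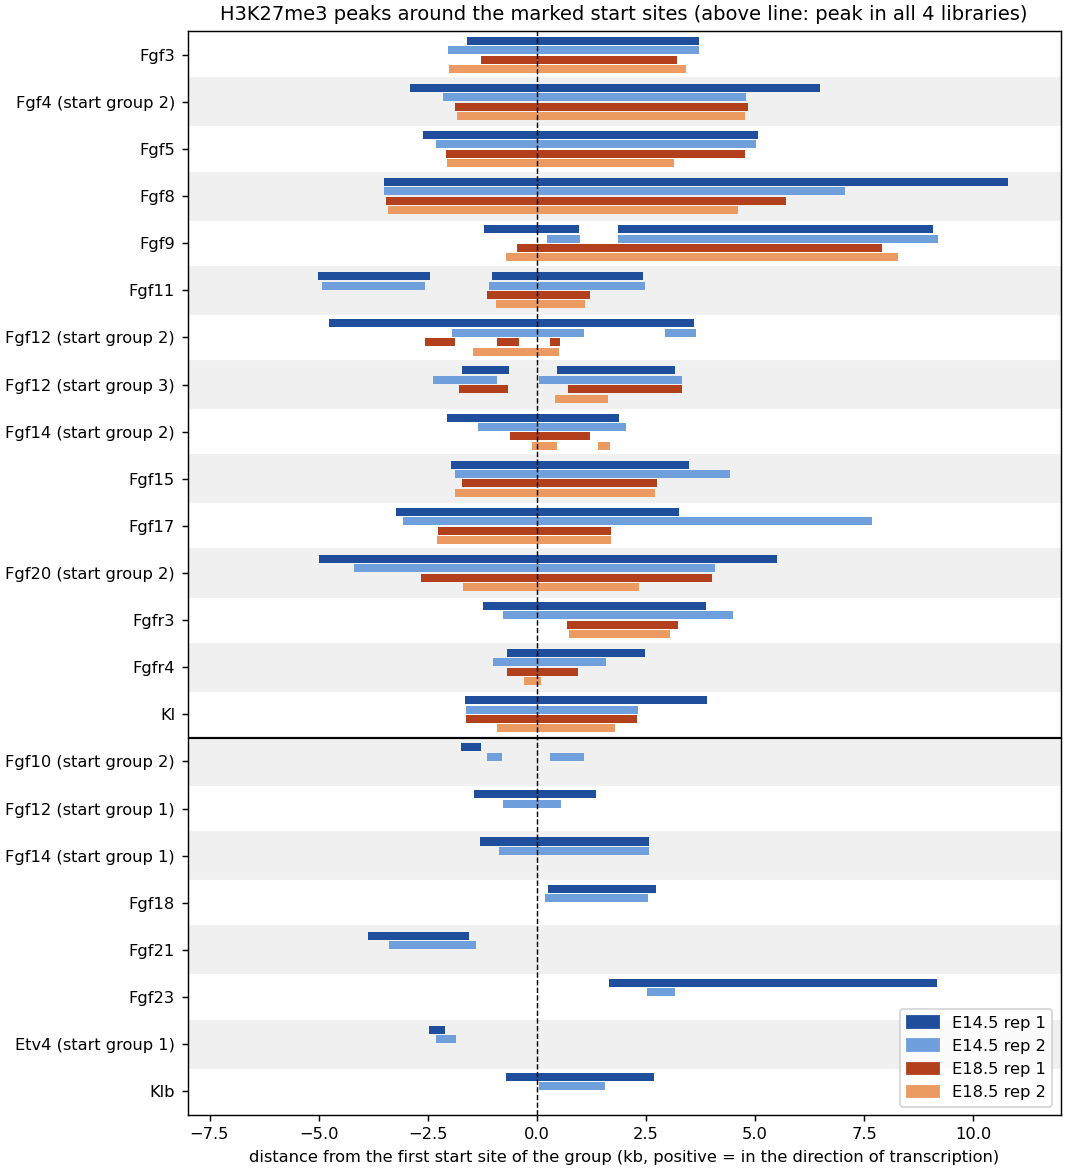
Peaks of the 4 libraries (bars, coloured by library) around each group of start sites with a peak, by distance from the first start site of the group (x axis, kb, positive in the direction of transcription). Groups above the line had a peak in all 4 libraries and groups below it had peaks at E14.5 only, where the Fgf10, Fgf21, Fgf23 and Etv4 peaks lie to the side of the start.

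Of the remaining ligands, Fgf1 and Fgf2, which lack a signal peptide and leave the cell by an unusual route, had no peak in any library. The nearest peak was 61098, 64266, 64571 and 642772 bp from a start site of Fgf1 and 73357, 318577, 197994 and 656670 bp from one of Fgf2. In both E14.5 libraries and in E18.5 replicate 2, Fgf6 was the unmarked gene nearest to a peak. The distances were 3241 and 3794 bp at E14.5, against 38924 and 5439 bp at E18.5, so its nearest E14.5 peaks lay just outside the 3000 bp window.

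The receptors divided as Fgfr3 and Fgfr4, which were marked in all 4 libraries, and Fgfr1, Fgfr2 and Fgfrl1, which were marked in none. Fgfr1 and Fgfr2 are the main receptors of mesenchyme and epithelium, and Fgfrl1 lacks the kinase domain. Fgfr3, a receptor that restrains cartilage growth, had 5093 and 5267 bp covered at E14.5, against 2534 and 2302 bp at E18.5, with percentiles of 97.2, 98.5, 97.3 and 90.1. Its peaks included the RefSeq start at E14.5 (-1277 to 3815 bp and -830 to 4436 bp), but began at 650 and 698 bp inside the gene at E18.5. Fgfr4, a receptor of liver and muscle, had 3181 and 2595 bp covered at E14.5 (-870 to 2310 bp and -1181 to 1413 bp) and 1636 and 392 bp at E18.5 (-859 to 776 bp and -465 to -74 bp). Its percentiles were 94.7, 95.3, 73.5 and 83.1. For both receptors each E18.5 length was shorter than each E14.5 length, and the Fgfr4 peak of E18.5 replicate 2 was the shortest.

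The nearest peak to a start site of Fgfr1 was 29183, 158704, 271161 and 271055 bp away, and that of Fgfrl1 was 26239, 27037, 26910 and 27664 bp away. For Fgfr2 the distances were 61154, 61366, 82264 and 516831 bp. When peaks anywhere in the annotated gene were counted, Fgfr2 had 89854, 70840, 46948 and 38125 bp in peaks. Its annotation spans chr7:130162451-133123350 and includes a start site at -2856542 bp of the RefSeq start, while the others lie at 545 to 98924 bp. No peak came within 61154 bp of any start site. The peaks thus lay in the long stretch between the far start and the others, and not among the other start sites. Other genes in that stretch were not scored for these peaks, so the peaks cannot be assigned to Fgfr2.

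Of the co-receptors, Kl, the partner of Fgf23, was marked in all 4 libraries, and Klb, the partner of Fgf15 and Fgf21, at E14.5 only. Kl had 4744 and 3948 bp covered at E14.5, against 3923 and 2713 bp at E18.5, at percentiles of 96.9, 97.4, 90.7 and 98.2. Its peaks ran from -1646 to 3893, -1624 to 2323, -1622 to 2300 and -916 to 1796 bp of the start. Klb had 3394 and 1524 bp covered at E14.5, at percentiles of 63.5 and 27.5, and its peaks included the start site (-797 to 2596 bp and -57 to 1466 bp). Of these partners, Fgf21, Fgf23 and Klb had no peak at E18.5, and Fgf15 and Kl did. The adhesion proteins Flrt1, Flrt2 and Flrt3, which bind FGF receptors, had no peak, nor did Fgfbp1 and Fgfbp3, which release FGFs from the matrix.

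Of the 11 feedback genes, 10 had no peak in any library. Most protein-coding genes had none either, since 5675 of 21951 had a peak. These were the Sprouty genes Spry1, Spry2 and Spry4, the Raf inhibitors Spred1, Spred2 and Spred3, the ERK phosphatases Dusp4, Dusp5 and Dusp6, and the transcription factor Etv5. The distance from their start sites to the nearest peak had a median of 65302 and 114702 bp at E14.5, against 303020 and 571202 bp at E18.5. Dusp6, the cytoplasmic ERK phosphatase, was 170219 and 195243 bp from the nearest peak at E14.5 and 3053687 and 3053668 bp from it at E18.5. The closest was Dusp5 in E18.5 replicate 1, at 6516 bp, followed by Spred3 in E14.5 replicate 1, at 7625 bp. The longer distances at E18.5 go with lists that hold fewer peaks.

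Etv4, an ETS transcription factor induced by FGF, was the exception. It had a peak of 365 bp at chr11:101787484-101787848 in E14.5 replicate 1 and of 461 bp at chr11:101787222-101787682 in replicate 2, and none at E18.5. The peaks lay at -2477 to -2113 bp and -2311 to -1851 bp of the start and ranked at percentiles of 26.9 and 3.37. They thus were among the weaker peaks of their lists and did not reach the start site.

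The genes without a peak at E18.5 were those with weaker peaks at E14.5. Of the 20 members marked in both E14.5 libraries, 6 (30%) had no peak in either E18.5 library, compared with 23.8% of the protein-coding genes marked at E14.5. These were Fgf10, Fgf18, Fgf21, Fgf23, Etv4 and Klb. The mean percentile of their strongest E14.5 peak ran from 15.1 (Etv4) to 79.9 (Fgf21), with a median of 46.1. In the 14 genes marked in all 4 libraries it ran from 82.8 (Fgf12) to 99.5 (Fgf11), with a median of 97.0. The ranges did not overlap. Over all protein-coding genes the medians were 55.4 for the 1015 genes at E14.5 only and 91.8 for the 2645 genes in all 4 libraries, so the same order held outside the FGF genes. The groups overlapped there, since 89.5% of the 1015 genes and 12.6% of the 2645 had a percentile of at most 80.

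The covered share of the windows at E14.5 ran from 3.18% (Etv4) to 40.3% (Klb) in the 6 genes, with a median of 20.3%, and from 27.4% (Fgfr3) to 100% (Fgf8 and Fgf17) in the 14, with a median of 68.2%. These ranges overlapped. The medians over protein-coding genes were 10.9% and 45.1%. The count of 6 depended on the lists and windows. When each list was limited to its 7107 top peaks by q-value, as many as the shortest list held, 2 genes remained at E14.5 only, Fgf18 and Fgf21. With windows of 1000 bp, 2 remained, Fgf18 and Klb, and under either change Fgf10 had a peak in E14.5 replicate 2 alone and Etv4 in no library. With peaks of a −log10 q-value of at least 5 alone, 4 genes were at E14.5 only, which were Fgf21, Fgf12, Fgf14 and Fgfr4, and Fgf18 had a peak in E14.5 replicate 1 alone.

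**Figure D4:**
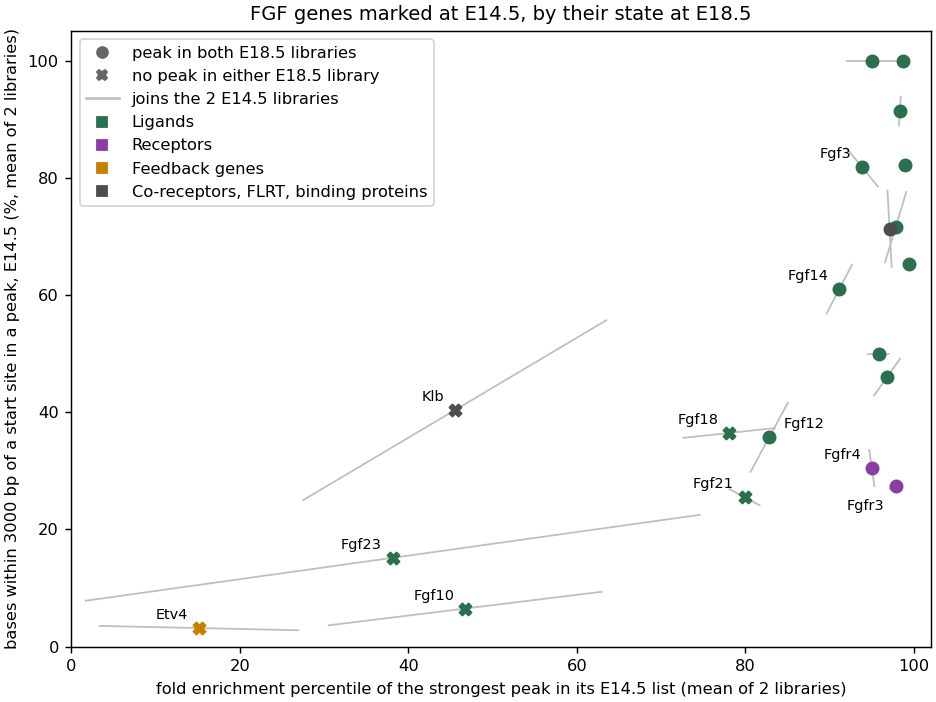
The 20 FGF genes marked in both E14.5 libraries, by the mean percentile of their strongest E14.5 peak (x axis) and the mean covered percentage of their windows at E14.5 (y axis), with a grey line joining the 2 libraries and colours for roles. The 6 genes without a peak at E18.5 (crosses) all lie left of the 14 genes with a peak in all 4 libraries (circles), at 79.9 or lower against 82.8 or higher.

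Among the 14 genes marked in all 4 libraries, the peaks were shorter at E18.5. Each E18.5 covered length was below each E14.5 one in 11 of 14, compared with 77.8% of protein-coding genes marked in all 4. Fgf3, Fgf8 and Fgf9 were the exceptions, where the stages overlapped or, for Fgf8, were equal. The summed width of the peaks was shorter in 12 of 14, compared with 85% of these protein-coding genes, with Fgf3 and Fgf9 as the exceptions. Both counts were near the shares of all genes. The covered length at E18.5 was 78.6% of that at E14.5 in the median member and 62.2% in the median protein-coding gene, and the width was 63.1% and 54.4%. No member had both E18.5 lengths above both E14.5 lengths. The percentile of the strongest peak within its list was lower in both E18.5 libraries in 11 of 14, beside 73.3% of these protein-coding genes, in lists of different length, and overlapped in Fgf8, Fgfr3 and Kl. The count of 14 was 7 when peaks of a −log10 q-value of at least 5 alone were used.

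Of the 20 marked genes, 17 had peaks that came within 3000 bp of no other protein-coding start site, and 3 shared them, which were Fgf11 with Tmem102, Fgf17 with Dmtn at E14.5, and Fgf21 with Fut1 and Izumo1. Fgf3, Fgf4 and Fgf15 lie side by side on chr7, between 144838083 and 144900953, and each had a peak of its own in every library. These 3 genes are neighbours in a single stretch of the chromosome and are not separate samples of the genome.

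The base composition at the start sites differed between the roles. Within 500 bp of the most upstream start site, the ratio of observed to expected CpG had a median of 0.488 in the ligands, 0.684 in the receptors, 0.819 in the feedback genes and 0.544 in the co-receptors and binding proteins, with 0.552 over 21911 protein-coding genes. Of the 11 feedback genes 10 reached 0.6, the level often used for CpG islands, and of the 20 ligands 6 did (30%), compared with 45.9% of protein-coding genes. The 15 marked ligands had a median of 0.494, the 5 unmarked ligands one of 0.409 and the 10 unmarked feedback genes one of 0.829. Over all roles, the median was 0.618 in the 14 genes marked in all 4 libraries. It was 0.462 in the 6 genes marked at E14.5 only and 0.581 in the 23 genes without a peak. Across the 43 genes, which are not independent replicates, the ratio and the covered share at E14.5 had a Pearson's r of 0.0063 and a Spearman's rho of -0.039, given as a description. At Fgf4, Fgf10 and Fgf20 the most upstream start is not the start near which the peaks lay, so the ratio there describes another stretch of DNA.

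**Figure D5:**
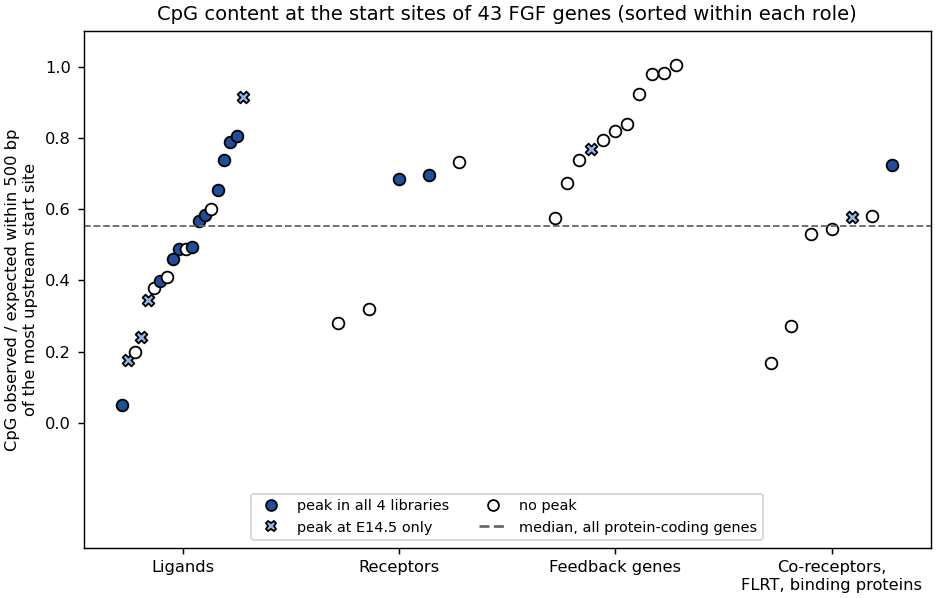
Ratio of observed to expected CpG within 500 bp of the most upstream start site (y axis) for the 43 FGF genes, grouped by role (x axis) and sorted within each role, with the symbol giving the pattern of peaks and the dashed line the median of protein-coding genes (0.552). Most feedback genes are CpG-rich and unmarked, while the marked ligands range from 0.0491 in Fgf4 to 0.914 in Fgf18. The Fgf4 value belongs to its upstream start, which had no peak in any library.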

How the data were processed

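H3K27me3 peak lists of 2 E14.5 and 2 E18.5 libraries were analysed. The authors mapped the reads by Bowtie2 and ran MACS2 in its broad mode (q-value 0.01) on each library alone. The submitters' processing notes list Bowtie2 2.3.5.1, SAMtools 1.9, MACS2 2.2.7.1, deepTools 3.5.1 and build mm10 (GRCm38). The control for the calls is not given in the sources used here. Per the methods, E18.5 wild-type and Kdm6b knockout samples were brought by subsampling to the depth of the other samples. Whether this covers the E18.5 libraries used here is not clear. The deposited lists give each peak's fold enrichment (a ratio of pileup over local background), its −log10 p-value and −log10 q-value, and a display score, which was not used. They give no counts or read totals. The labelled input library was not analysed here, and some marker genes of other cell types are not reported here.

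Genes and start sites came from GENCODE vM21 and promoters from RefSeq (33 of 43 members matched). A gene was marked in a library when a peak overlapped, by at least 1 bp, the 3000 bp either side of any start site. Members and gene lists were chosen with earlier results of these data known. All 43 members were named. Peak positions and percentiles were required for genes at E14.5 only, for the 3 of each role with the longest covered length, and for Fgf10, and further members were added after their values were seen. Stages were compared by exact permutation tests. Alternatives were other windows, start sites, q-value thresholds, equal list sizes, a minimum covered length, a replicate block and leaving out each library. In simulated lists with 9710 genes scored, 100% of presence calls were recovered. Python 3.11.15, numpy 2.4.6, pandas 2.3.3, scipy 1.17.1 and matplotlib 3.10.9 were used.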

Additional observations from a re-analysis of the deposited data

How the results depend on the processing

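All alternatives could be run. The tests between stages could not change side, since their p-values stay at the smallest the design allows, so they say nothing of stability. The difference of -6 genes was -2.5 with windows of 1000 bp and -3.5 with equal numbers of top peaks, and between -7 and -4 under the others. The difference of -33630.5 bp was -10830 bp with windows of 1000 bp, -21855.5 bp with the most upstream start alone and -97791.5 bp over whole genes. The last value includes the Fgfr2 peaks that lay far from all its start sites. Of 39 alternative values of the counts, 34 stayed within 1.5 times the reported count. Among the 34 are the values with 1 library left out. Those could not move, since all 43 members were scored alike in both libraries of each stage. The count of 6 genes at E14.5 only was 2 with windows of 1000 bp, 3 with a −log10 q-value of at least 3, 2 with equal numbers of top peaks and 3 with a covered length of at least 500 bp. The count of 14 genes in both E18.5 libraries was 7 with a −log10 q-value of at least 5, where Fgf3, Fgf11, Fgf15 and Fgf17 were absent from E18.5 replicate 2 and Fgf12, Fgf14 and Fgfr4 from both. The feedback genes marked in both E14.5 libraries numbered 0 or 1 of 11 in all 10 settings of windows, starts and peaks. Leaving out 1 library in turn gave covered differences from -38540.5 to -28720.5 bp. As a replicate block, pairing libraries by number, the differences were -6 genes and -33630.5 bp (exact sign-flip test, p = 0.5, the smallest that 2 pairs allow). The deviations of same-numbered libraries correlated at 0.165 over 5675 protein-coding genes and at 0.449 over the 20 marked members, and the labels share only a number. The lists hold no read counts, so peaks missing at E18.5 cannot be told apart from peaks just under a threshold set by depth.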

Other observations

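Further genes of the FGF pathway were scored in the same way. Of 43 other pathway genes, 38 had no peak in any library, 3 (beside 19.5% of all protein-coding genes) were marked in the pair of E14.5 libraries and 0 (beside 12.2%) in the pair of E18.5 libraries. The X-linked ligand Fgf13, an intracellular FGF, had 1190 and 2794 bp covered at E14.5 and none at E18.5, like the first start of Fgf12 and Fgf14. The X-linked ligand Fgf16 had 1711 and 4071 bp covered at E14.5, against 925 and 0 bp at E18.5. Grb2, the adaptor that links receptors to RAS, had 1700 and 1664 bp at E14.5, against 1312 and 0 bp at E18.5, and was the only one of 19 adaptors and kinases with a peak.

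Of 16 heparan sulfate carriers and enzymes, Gpc1 had 1646 bp covered in E14.5 replicate 1 alone and Gpc3 had 780 bp in E14.5 replicate 2 alone. None of 6 further feedback or target genes (Il17rd, Etv1, Dusp1, Egr1, Fos and Myc) had a peak in any library. The same held for 10 of the 11 feedback genes above and for most protein-coding genes. Spry3 was not analysed here. When the annotated gene with 3000 bp on either side was counted, peaks also appeared at Fgf6 (3914, 2673, 0 and 691 bp) and at Spred3 (796 bp in E14.5 replicate 1 alone), and peaks in E18.5 replicate 1 at Fgf23 (641 bp) and Klb (1526 bp).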
